A study of Mus musculus with 8 samples.

Results

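Wnt receptors and the proteins that carry the Wnt signal into the nucleus were followed through 10 genes: the receptors Fzd4 and Fzd6, the co-receptors Lrp5 and Lrp6, β-catenin itself (Ctnnb1), the DNA-binding partners of β-catenin Lef1, Tcf7l1 and Tcf7l2, and Axin2 and Apcdd1, which are common targets of the pathway and restrain it. The 10 genes were chosen with earlier results of these data known and were taken by symbol from a table of 24015 genes. All 10 were found and all 10 passed the filter on low counts, which left 13908 genes to test. In brief, every member had a higher average level in endothelium than in hematopoietic cluster cells, but the difference passed the test for only 4 of them: Fzd4, Fzd6, Tcf7l1 and Ctnnb1. For Axin2 and Apcdd1 the direction was largely set by the filter.

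Wnt proteins bind a Frizzled receptor together with Lrp5 or Lrp6. This halts the complex of Axin, Apc and Gsk3 that otherwise marks β-catenin for destruction, so that β-catenin builds up, enters the nucleus and joins Tcf and Lef factors on DNA. Tcf7l1 acts mostly as a repressor, whereas Lef1 more often acts as an activator when β-catenin is bound. In endothelium the pathway is best known from the growth of retinal vessels and the blood-brain barrier, where the ligand norrin acts through Fzd4, Lrp5 and the membrane protein Tspan12. Hematopoietic clusters bud from the endothelium of the embryonic aorta and of the vitelline and umbilical arteries.

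The data were RNA-Seq libraries of sorted cells from mouse embryos at E11.5, dissected as the aorta-gonad-mesonephros region with both of these arteries (AGM+VU). There were 4 groups of 2 libraries with 100 cells each: wild type cluster cells, Sl/Sl cluster cells, wild type endothelium and Sl/Sl endothelium. Cluster cells were Ter119- VE-Cadherin+ Kit+, and endothelial cells (ECs) were Ter119- VE-Cadherin+ Kit- CD41- CD45-. Sl/Sl embryos are homozygous for a Steel deletion that removes the gene for Kit ligand (Kitl) in every cell on a C57BL/6 background. Embryos of the same genotype were pooled, and no group received a treatment. The deletion takes in the whole Steel locus, so its effects cannot be told apart from those of Kitl loss alone.

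Counts on genes summed to between 8933236 and 13428214 per library, and 8 to 10 of the members were detected in each. As a check of the genotype, wild type ECs held 1250 and 923 Kitl counts, whereas Sl/Sl ECs held 6 and 2. Among cluster cells the wild type libraries had 110 and 0 and the Sl/Sl libraries 1 and 3, so Kitl did not check the genotype of the wild type cluster library with 0. All 12 endothelial markers were detected in every library, with a summed level of 7222 to 8098 CPM (counts scaled to library size) in ECs and 483 to 3313 CPM in cluster cells. The 10 hematopoietic markers summed to 873 to 1174 CPM in cluster cells and 54.2 to 95.5 CPM in ECs. The 10 macrophage markers summed to 236 to 822 CPM in cluster cells and 5.08 to 25.8 CPM in ECs, and the 8 erythroid markers to 21.5 to 247 CPM over all libraries. The 10 mesenchymal markers were uneven within groups: they reached 4881 CPM in Sl/Sl cluster replicate 2 and 42.1 CPM in replicate 1, 1632 and 224 CPM in wild type ECs, 139 and 1205 CPM in Sl/Sl ECs, and 885 and 1109 CPM in wild type cluster cells. In libraries of 100 pooled cells, fewer cells of a type and less RNA per cell cannot be told apart. The libraries of a group were described as biological replicates from 2 sorting experiments, with pools of 1 to 4 embryos. Which library came from which pool or experiment is not given in the sources used here, so p-values measure the spread between these libraries, whatever its source.

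To show the genes on which the comparison of cell types turns, the 250 bases before the RefSeq start are given for the 3 called members that have an entry in the promoter table, 5′ to 3′ on the strand of the gene, with the core of the TCF/LEF motif (CTTTG, or CAAAG on the other strand) in capitals. Each sequence comes from RefSeq (table build GRCm38.p6) and was found once in mm9, the build of the counts, where it ends at the base before the annotated gene. The Fzd4 sequence lies at chr7:96552626-96552875 on the plus strand, the Ctnnb1 sequence at chr9:120842268-120842517 on the plus strand, and the Tcf7l1 sequence at chr6:72739040-72739289 on the minus strand.
Fzd4: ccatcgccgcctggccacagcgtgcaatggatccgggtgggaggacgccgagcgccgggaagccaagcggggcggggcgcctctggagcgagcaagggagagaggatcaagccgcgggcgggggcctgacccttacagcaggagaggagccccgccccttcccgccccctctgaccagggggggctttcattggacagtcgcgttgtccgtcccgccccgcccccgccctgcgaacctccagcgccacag
Ctnnb1: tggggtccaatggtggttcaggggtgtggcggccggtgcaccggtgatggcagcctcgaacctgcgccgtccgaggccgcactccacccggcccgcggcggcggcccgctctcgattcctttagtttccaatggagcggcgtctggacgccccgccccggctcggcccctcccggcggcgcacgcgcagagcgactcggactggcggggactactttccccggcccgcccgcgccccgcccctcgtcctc
Tcf7l1: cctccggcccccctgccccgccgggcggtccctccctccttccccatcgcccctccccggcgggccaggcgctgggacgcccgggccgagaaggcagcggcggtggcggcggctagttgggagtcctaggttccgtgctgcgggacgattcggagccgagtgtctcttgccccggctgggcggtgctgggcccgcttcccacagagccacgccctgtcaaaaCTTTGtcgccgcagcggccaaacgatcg
The 3 windows are rich in G and C, at 72.8%, 74.8% and 73.6% in this order. The core occurs once, in Tcf7l1, from base 223 of the window, and it is a common string, found in 48.6% of 32851 windows of the same length. The longer motifs CTTTGAA and CTTTGAT, each of which contains the core, were searched on both strands. They occur in 4.46% and 3.21% of all windows and in none of the 11 windows of the 6 members with an entry: Fzd4, Ctnnb1, Axin2, Lef1, Tcf7l1 and Tcf7l2. The core was in 7 of these 11 windows, those of Lef1, Tcf7l1 and Tcf7l2. Fzd6, Lrp5, Lrp6 and Apcdd1 are named only.

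The comparison of cell types asks which members differ between the endothelium and the cells that bud from it. Averaged over both genotypes, 4 of 10 members were called higher in ECs and 0 lower, at an adjusted p-value under 0.1 (quasi-likelihood test of edgeR, with p-values adjusted by Benjamini-Hochberg over all genes tested). Of all genes tested, 8.48% were called higher and 8.12% lower. The members were chosen with earlier results of these data known, so these shares are context and not a test of the list. The estimate was positive for 10 of 10 members, with a median log2 fold change of 2.71 against -0.07 over all genes. The median was also 2.71 with the 3 members that had a group at or under the floor of 3 counts per library set to that floor. Axin2 and Apcdd1 had at most 9 and 6 counts in a cluster library and passed the filter on low counts only through EC libraries. Their positive sign was thus largely set by the filter and does not add to the 10 of 10. Lrp5 also passed only with its EC libraries. The 4 called members had their EC and cluster libraries fully apart, higher in ECs, as did 10.1% of all genes.

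**Figure D1:**
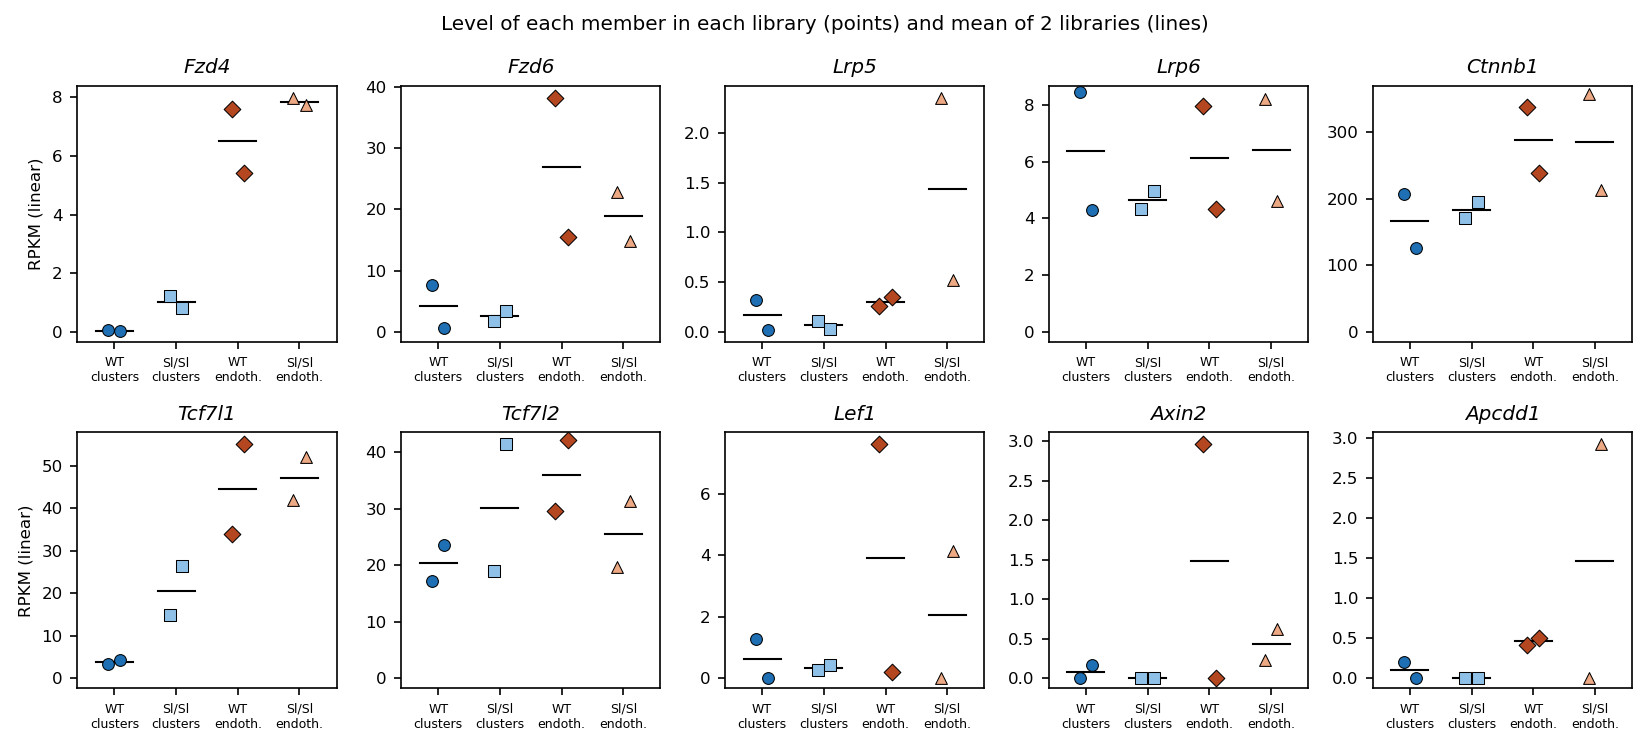
Level of each of the 10 genes in each of the 8 libraries, in RPKM (CPM from plain totals, per kilobase of exon) on linear axes that differ between panels; points are libraries and lines are means of 2. The Fzd4, Fzd6, Ctnnb1 and Tcf7l1 panels show all 4 EC libraries above all 4 cluster libraries, whereas the EC libraries of Lef1, Axin2 and Apcdd1 range from 0 to the highest value of the gene.

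Fzd4, the receptor for norrin and for several Wnt proteins (chr7:96552876-96558620, plus strand, mm9), had 2 and 1 counts in wild type cluster cells, 54 and 41 in Sl/Sl cluster cells, 359 and 210 in wild type ECs and 350 and 254 in Sl/Sl ECs. It was all but undetected in wild type cluster cells. In RPKM no 2 groups overlapped, but the 2 EC groups differed by a log2 fold change of 0.29 (SE 0.81), which was not called. Its level was 0.0360 ± 0.0204 RPKM (SD, n = 2) in wild type cluster cells, 1.03 ± 0.28 in Sl/Sl cluster cells, 6.51 ± 1.53 in wild type ECs and 7.85 ± 0.19 in Sl/Sl ECs. The average over genotypes was higher in ECs by a log2 fold change of 5.29 (SE 0.71, edgeR adjusted p = 0.00228).

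Because wild type cluster cells held 3 Fzd4 counts in all, the fold in wild type is best given with its counting error. Summed over libraries, the level in wild type ECs was 206 times that in wild type cluster cells, with an exact binomial 95% interval of 70.2 to 1003. In Sl/Sl, with 604 and 95 counts, the ratio was 8.50 with an interval of 6.83 to 10.7. The libraries carry no molecular identifiers, so these intervals cover counting error only.

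Fzd6, a receptor best known for orienting cells within tissues (chr15:38837826-38869736, plus strand), had 342 and 36 counts in wild type cluster cells, 85 and 192 in Sl/Sl cluster cells, 2031 and 676 in wild type ECs and 1126 and 549 in Sl/Sl ECs. It was the more abundant of the 2 receptors per length in every library, at 26.91 ± 16.04 RPKM (SD, n = 2) in wild type ECs and 4.19 ± 4.95 in wild type cluster cells. The average was higher in ECs by a log2 fold change of 2.92 (SE 0.67, edgeR adjusted p = 0.0256). The size of this difference leaned on wild type cluster replicate 1, without which it was 4.18 (edgeR adjusted p = 0.000628).

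Lrp5 and Lrp6 are the co-receptors that pair with Frizzled proteins, and neither was called. Lrp6 (chr6:134396496-134516931, minus strand) was well detected, with 851 and 504 counts in wild type cluster cells, 487 and 625 in Sl/Sl cluster cells, 955 and 424 in wild type ECs and 916 and 385 in Sl/Sl ECs. The spread within each EC group covered nearly the whole range of the gene. Its log2 fold change was 0.33 (SE 0.36, edgeR adjusted p = 0.613). Lrp5 (chr19:3584825-3686564, minus strand) was sparse, with 18 and 1 counts in wild type cluster cells, 7 and 2 in Sl/Sl cluster cells, 17 and 19 in wild type ECs and 145 and 24 in Sl/Sl ECs. Only Sl/Sl EC replicate 1 stood out, and the average difference of 2.70 on the log2 scale had an SE of 1.55 (edgeR adjusted p = 0.308). Per length, Lrp6 exceeded Lrp5 in every library.

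Ctnnb1, which encodes β-catenin (chr9:120842518-120869625, plus strand), had the highest level per length of the 10 genes, with group means from 166 to 289 RPKM. It had 8054 and 5735 counts in wild type cluster cells, 7415 and 9485 in Sl/Sl cluster cells, 15746 and 9088 in wild type ECs and 15450 and 6933 in Sl/Sl ECs. β-catenin also links VE-Cadherin to the cytoskeleton at cell junctions, a role apart from Wnt signaling. On the CPM scale, which allows for library size, the 4 EC libraries lay between 826 and 1353 and the 4 cluster libraries between 447 and 695. The difference was the smallest of those called, with a log2 fold change of 0.85 (SE 0.21, edgeR adjusted p = 0.0336).

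Tcf7l1, the Tcf factor that mostly represses (chr6:72576365-72739039, minus strand), had 108 and 161 counts in wild type cluster cells, 515 and 1019 in Sl/Sl cluster cells, 1255 and 1670 in wild type ECs and 1436 and 1342 in Sl/Sl ECs. Its level was 3.97 ± 0.68 RPKM (SD, n = 2) in wild type cluster cells, 20.6 ± 8.1 in Sl/Sl cluster cells, 44.6 ± 15.0 in wild type ECs and 47.0 ± 7.3 in Sl/Sl ECs. The 2 EC groups overlapped, and both lay above Sl/Sl cluster cells, which lay above wild type cluster cells. The average was higher in ECs by a log2 fold change of 2.47 (SE 0.31, edgeR adjusted p = 0.00162).

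Tcf7l2, the Tcf factor best known from the intestinal epithelium (chr19:55816300-56008145, plus strand), had 841 and 1349 counts in wild type cluster cells, 1041 and 2531 in Sl/Sl cluster cells, 1733 and 2019 in wild type ECs and 1067 and 1276 in Sl/Sl ECs. No neighbouring groups in the order of its levels were apart, and the log2 fold change of 0.42 (SE 0.31) was not called (edgeR adjusted p = 0.430). Per length, Tcf7l2 exceeded Tcf7l1 in wild type cluster cells (20.4 against 3.97 RPKM) and in Sl/Sl cluster cells (30.2 against 20.6 RPKM), whereas Tcf7l1 was the higher in ECs (44.6 against 35.96 RPKM in wild type, 47.0 against 25.5 in Sl/Sl).

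Lef1 (chr3:130813215-130927275, plus strand), an effector and itself a target of the pathway, was high in 1 library of each EC group: it had 360 and 8 counts in wild type ECs and 0 and 136 in Sl/Sl ECs. The cluster libraries held 51 and 0 Lef1 counts (wild type) and 12 and 21 (Sl/Sl). The groups overlapped and no call was made, with a log2 fold change of 2.72 (SE 1.93, edgeR adjusted p = 0.414). Without Sl/Sl EC replicate 2 the estimate turned to -2.09. The Sl/Sl EC library that remained held 0 Lef1 counts, so the size of this value is arbitrary.

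The feedback genes were the sparsest. Axin2 (chr11:108781663-108812095, plus strand), a negative regulator that serves widely as a readout of the pathway, had 0 and 9 counts in wild type cluster cells, 0 and 0 in Sl/Sl cluster cells, 162 and 0 in wild type ECs and 12 and 24 in Sl/Sl ECs. It was not called (edgeR adjusted p = 0.179, and DESeq2 adjusted p = 0.0761, which is under the threshold). Its mean level in Sl/Sl ECs was 8.57 times a floor of 3 counts per library in Sl/Sl cluster cells. This difference within Sl/Sl was not called (edgeR adjusted p = 0.412). Apcdd1 (chr18:63081981-63112849, plus strand), a membrane-bound inhibitor of Wnt receptors, had 6 and 0 counts in wild type cluster cells, 0 and 0 in Sl/Sl cluster cells, 15 and 15 in wild type ECs and 0 and 73 in Sl/Sl ECs (edgeR adjusted p = 0.205). Its mean in Sl/Sl ECs was 19.1 times the same floor, a value that came from 1 of the 2 EC libraries (within Sl/Sl, edgeR adjusted p = 0.381). The floor covers counting error only, and libraries of a group differed by more, as with 162 and 0 Axin2 counts in wild type ECs. A count of 0 thus does not show absence. In wild type cluster cells 1 library held 9 Axin2 counts and 1 held 6 Apcdd1 counts, so neither gene was undetected there.

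The EC libraries with most Lef1 were also those with most mesenchymal marker signal, wild type replicate 1 and Sl/Sl replicate 2. Norrin (Ndp), the ligand of Fzd4, followed the same libraries, with 176 and 0 counts in wild type ECs and 0 and 76 in Sl/Sl ECs; it was named after its values were seen. The highest level of Axin2 was in wild type EC replicate 1 (12.9 CPM) and that of Apcdd1 in Sl/Sl EC replicate 2 (8.70 CPM). The cluster library with most mesenchymal marker signal, Sl/Sl replicate 2, had 21 Lef1 counts and 0 of Axin2, Apcdd1 and Ndp. The part of other cells in these values was not tested.

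**Figure D2:**
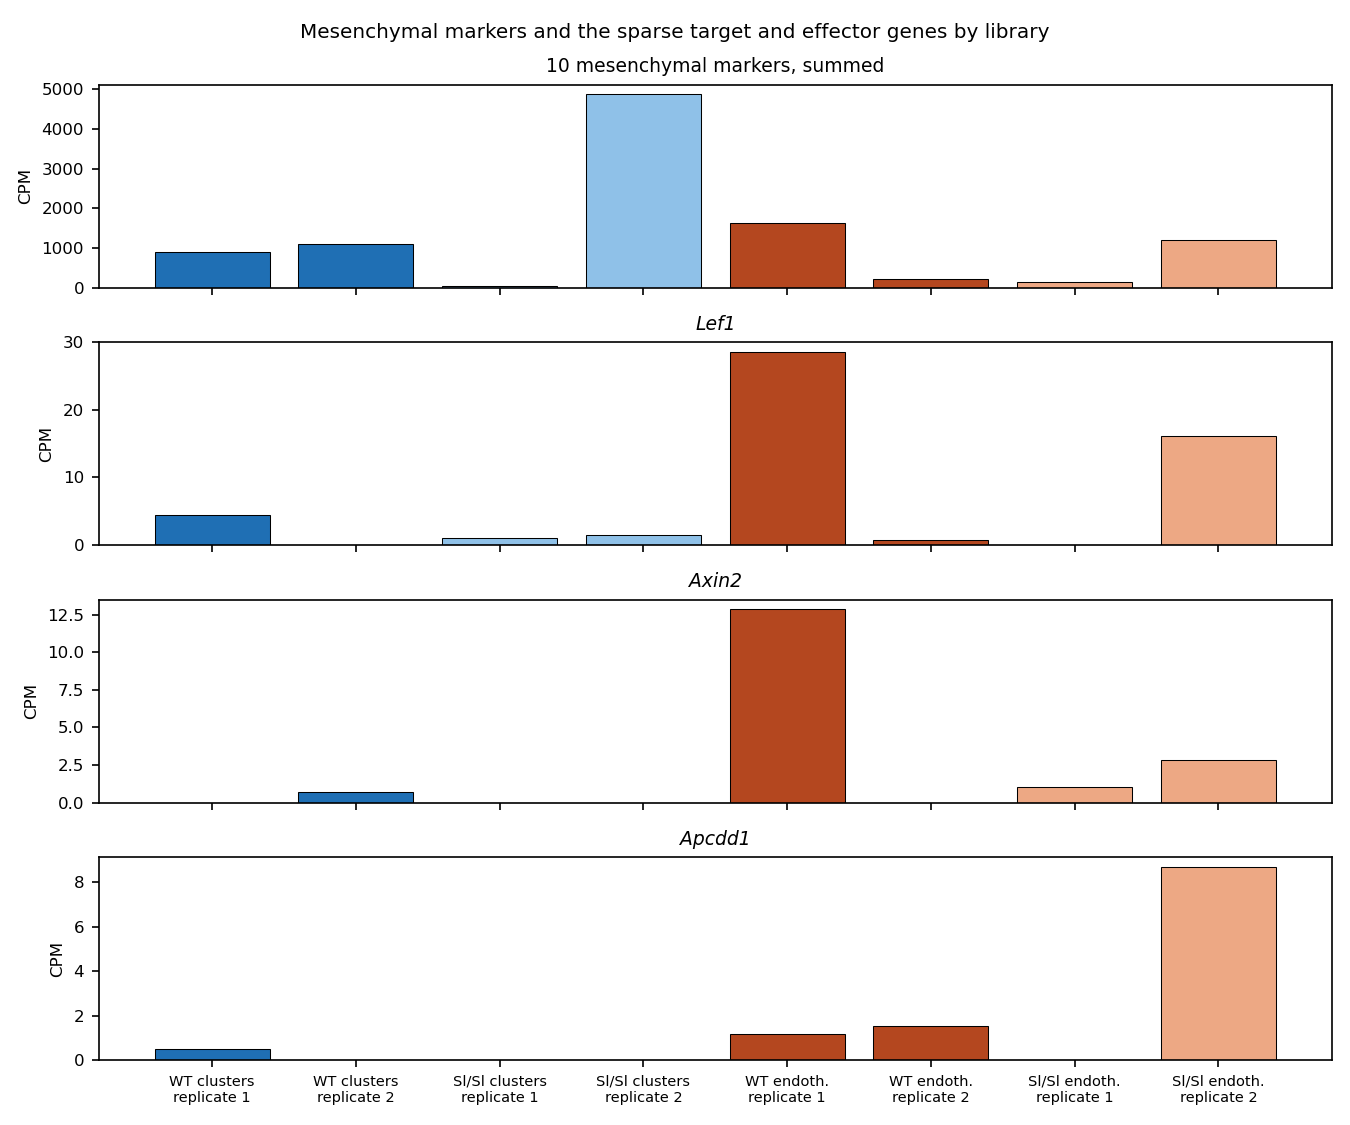
Summed level of 10 mesenchymal markers (top) and levels of Lef1, Axin2 and Apcdd1 (CPM, linear axes from 0) in each of the 8 libraries, 1 bar per library. Wild type EC replicate 1 and Sl/Sl EC replicate 2 have the highest mesenchymal sums among ECs, 1632 and 1205 CPM, and the highest Lef1 levels, 28.6 and 16.2 CPM.

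The library of each cell type with the highest mesenchymal sum was then left out (Sl/Sl cluster replicate 2 and wild type EC replicate 1, chosen after the data were seen). The log2 fold change was 5.04 for Fzd4 and 2.85 for Tcf7l1. Fzd6 was at 2.82 and Ctnnb1 at 0.76, beside 2.92 and 0.85 with all libraries. Fzd6 and Ctnnb1 lost their calls in this fit, which has 1 library of Sl/Sl cluster cells and 1 of wild type ECs. The lost calls cannot be told apart from the smaller number of libraries. All 4 were called whichever single library was left out.

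Endothelial markers moved with the members, since they too were higher in ECs: 12 of 12 were called, with a median log2 fold change of 2.396. Fzd4 stood further apart than the markers did. Per 1000 CPM of endothelial marker signal, Fzd4 was at 0.128 and 0.161 CPM in wild type cluster cells, 1.34 and 3.35 in Sl/Sl cluster cells, 3.90 and 2.94 in wild type ECs and 3.94 and 3.74 in Sl/Sl ECs. The EC libraries lay above the cluster libraries of their own genotype on this scale in wild type and in Sl/Sl, and Sl/Sl cluster replicate 2 fell within the range of wild type ECs. Fzd6 did not separate on this scale, at 2.11 to 21.8 over all cluster cells and 8.08 to 22.1 over all ECs. Tcf7l1 did not separate on this scale, at 6.89 to 26.0 in wild type cluster cells, 12.8 to 83.3 in Sl/Sl cluster cells and 13.6 to 23.4 over all ECs. Ctnnb1 per endothelial marker signal was lower in the 4 EC libraries (102 to 174) than in the 4 cluster libraries (184 to 925). This order follows from the larger difference of the markers than of Ctnnb1, which was itself higher in ECs by 0.85. It does not show less Ctnnb1 in ECs. The part of endothelial cells within the Kit+ gate was not tested.

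**Figure D3:**
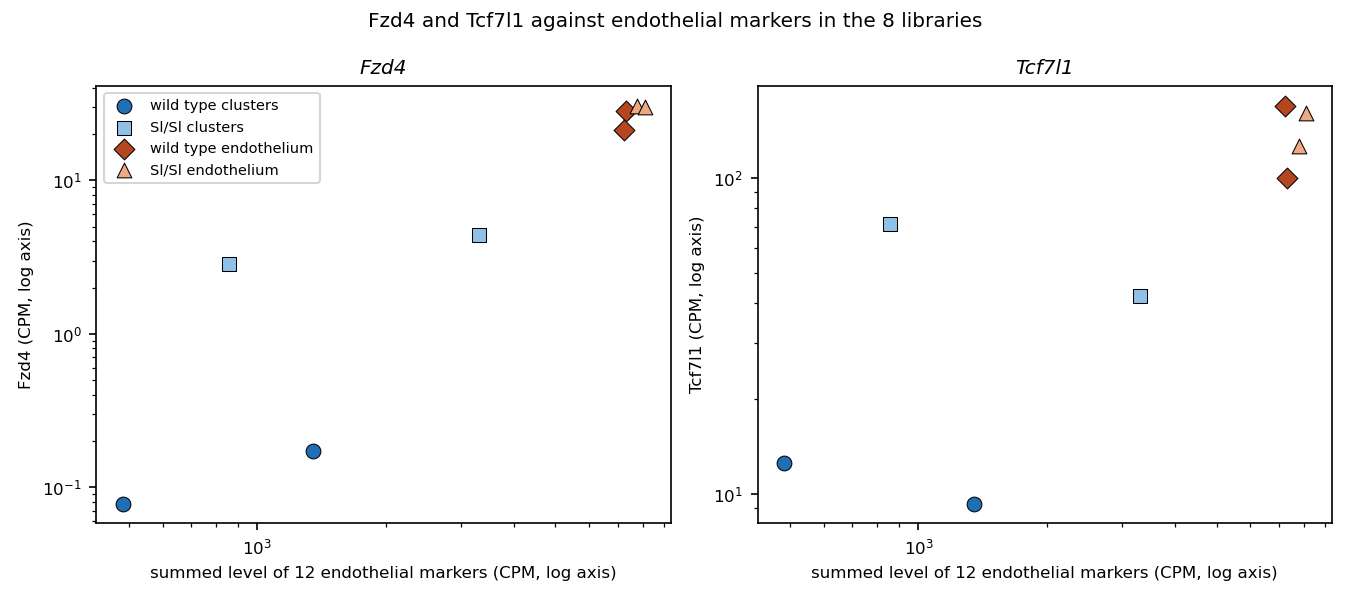
Fzd4 (left) and Tcf7l1 (right) against the summed level of 12 endothelial markers in the 8 libraries, all in CPM on log axes, 1 point per library. The 4 EC libraries sit together at 7222 to 8098 CPM of markers, and at 483 to 3313 CPM the 2 Sl/Sl cluster libraries lie above the 2 wild type cluster libraries for both genes.

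Within wild type alone, 2 of 10 members were called higher in ECs, Fzd4 and Tcf7l1, against 4.56% of all genes. The log2 fold change of Fzd4 was 7.53 (SE 1.13, edgeR adjusted p = 0.00821) and that of Tcf7l1 was 3.62 (SE 0.46, edgeR adjusted p = 0.00380). Fzd6 was higher by 2.83 (SE 0.95, edgeR adjusted p = 0.143) and Ctnnb1 by 0.93 (SE 0.30, edgeR adjusted p = 0.126), both short of the threshold. Both were called without wild type cluster replicate 1 (edgeR adjusted p = 0.00593 and 0.0644), and Ctnnb1 also without either Sl/Sl EC library (0.0817 without replicate 1 and 0.0651 without replicate 2, edgeR adjusted). DESeq2 on the same 8 libraries called all 4 in wild type, among 2613 genes. Over the whole list, 6 of 10 members had both EC libraries above both cluster libraries (these 4, Tcf7l2 and Apcdd1), as did 25.1% of all genes.

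Within Sl/Sl, 0 of 10 members were called by edgeR, where 0.985% of all genes were called higher. At an unadjusted p under 0.05 from edgeR, 4 members were higher (6.53% of all genes). DESeq2 called 3 members (Fzd4, Fzd6 and Tcf7l1), among 1631 genes. The log2 fold changes were 3.06 for Fzd4 (SE 0.88, edgeR adjusted p = 0.148), 3.00 for Fzd6 (SE 0.96, edgeR adjusted p = 0.193), 1.33 for Tcf7l1 (SE 0.42, edgeR adjusted p = 0.191) and 0.78 for Ctnnb1 (SE 0.30, edgeR adjusted p = 0.280). Over the whole list, 7 of 10 members had both EC libraries above both cluster libraries (these 4, Lrp5, Lrp6 and Axin2), as did 21.9% of all genes. Fzd6 was called without either wild type cluster library (edgeR adjusted p = 0.0201 and 0.0208), neither of which is in this contrast.

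**Figure D4:**
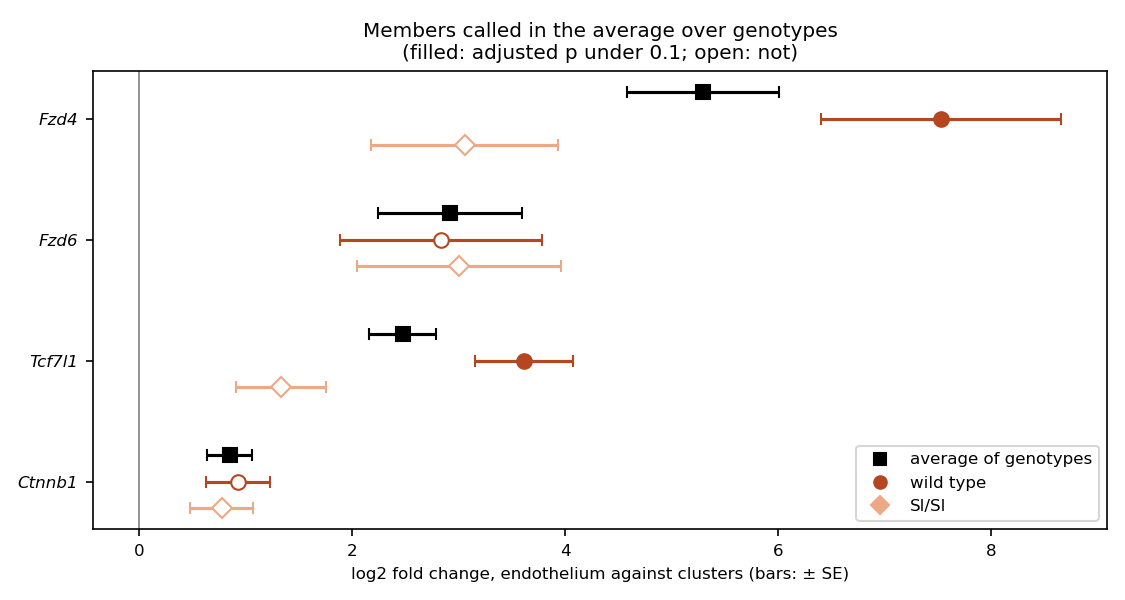
Log2 fold change of EC against cluster libraries, with bars of 1 SE, for the 4 members called in the average over genotypes, shown for that average, for wild type and for Sl/Sl; filled symbols passed an adjusted p of 0.1. The estimates of Fzd6 and Ctnnb1 lie close together in both genotypes, and those of Fzd4 (7.53 and 3.06) and Tcf7l1 (3.62 and 1.33) lie further apart.

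The comparison of genotypes asks what changes when Kitl is missing, first in the cluster cells that carry its receptor Kit. In cluster cells, edgeR called 0 of 10 members and 0 of all genes (0%). The study itself, with DESeq2 and the same level of 0.1, reported genes that differed between genotypes in both cell types. In cluster cells most of those were higher in Sl/Sl. The 0 given here therefore holds for this edgeR fit. At an unadjusted p under 0.05 there were 2 members, both higher in Sl/Sl, against 474 genes (3.41%) that were higher. These were Tcf7l1, at a log2 fold change of 2.38 (SE 0.44, edgeR adjusted p = 0.366), and Fzd4, at 4.76 (SE 1.02, edgeR adjusted p = 0.399). Both Sl/Sl libraries lay above both wild type libraries for these genes, as they did for 16.4% of all genes. From summed counts, Fzd4 was 29.2 times as high in Sl/Sl cluster cells, with a 95% counting interval of 9.70 to 144.

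The calls of these differences depended on the method. DESeq2 placed both under the threshold (DESeq2 adjusted p = 0.000253 for Tcf7l1 and 0.00397 for Fzd4) and called 175 genes in all. Without the filter on low counts edgeR also called both (edgeR adjusted p = 9.47e-05 and 0.0713), among 253 genes. Beside the genes, the endothelial marker sum was 3313 and 856 CPM in Sl/Sl cluster cells and 1353 and 483 CPM in wild type cluster cells. Of its 12 genes 0 were called between genotypes by edgeR, with a median log2 fold change of 1.00. An unadjusted p under 0.05 was found for 5 of them, against 587 of 13908 genes in either direction (edgeR). The 10 mesenchymal markers were all positive, with a median of 1.30, and 0 had an unadjusted p under 0.05 (edgeR). Their sum was 42.1 and 4881 CPM in Sl/Sl cluster cells and 885 and 1109 CPM in wild type cluster cells. The part of these markers in the difference was not tested. The other 8 members had an adjusted p of 1 between genotypes of cluster cells (edgeR).

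In ECs, edgeR called 0 of 10 members and 0 of all genes (0%), with 0 members and 580 genes (4.17%) at an unadjusted p under 0.05, and DESeq2 called 0 members and 178 genes. Kitl itself, the deleted gene, was at -7.91 on the log2 scale (SE 1.96, edgeR unadjusted p = 0.00278) and was not called either. A missing call in this comparison therefore does not show equal levels. Fzd4 differed by a log2 fold change of 0.29 (SE 0.81) and Tcf7l1 by 0.09 (SE 0.41), each with an edgeR adjusted p of 1. Whether the genotypes differed more in cluster cells than in ECs was tested as an interaction, which edgeR called for 0 of 10 members and 0 of all genes (0%). An unadjusted p under 0.05 with a positive sign, the effect being larger in cluster cells, was found for 2 members and 510 genes (3.67%). The interaction was 2.29 on the log2 scale for Tcf7l1 (SE 0.60, edgeR adjusted p = 0.902) and 4.47 for Fzd4 (SE 1.28, edgeR adjusted p = 0.902). DESeq2 placed both under the threshold (DESeq2 adjusted p = 0.0677 and 0.0862), among 175 genes. This is also the test of whether the difference between ECs and cluster cells was unlike in wild type and Sl/Sl.

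The rest of the pathway was followed in 7 lists, again averaged over genotypes. Of all genes tested, 8.48% were called higher in ECs and 8.12% lower. The calls are given gene by gene and do not show that a list differs from these shares. Of 20 other receptors and receptor partners, 19 were tested, 3 were called higher in ECs and 1 lower, with a median log2 fold change of 1.08. Fzd3, another Frizzled, was higher by 1.57 (SE 0.40, edgeR adjusted p = 0.0385). Tspan12, the partner of Fzd4 in norrin signaling, was higher by 1.502 (SE 0.37, edgeR adjusted p = 0.0323). Reck, which with Gpr124 lets ECs respond to Wnt7 ligands, was higher by 1.77 (SE 0.44, edgeR adjusted p = 0.0339). Rnf43, a ubiquitin ligase that removes Frizzled proteins from the membrane, had 38 and 63 counts in wild type cluster cells, 4 and 37 in Sl/Sl cluster cells and 0 in all 4 EC libraries. Its mean level in cluster cells was 9.55 times a floor of 3 counts per library in ECs (edgeR adjusted p = 0.0851).

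These calls depended on single libraries to different degrees. Tspan12 was called whichever library was left out, although its EC and cluster libraries overlapped. Fzd3 was lost without Sl/Sl cluster replicate 1, Sl/Sl cluster replicate 2 or wild type EC replicate 1 (edgeR adjusted p = 0.102, 0.103 and 0.117). Reck was lost without wild type cluster replicate 2 or Sl/Sl EC replicate 1 (edgeR adjusted p = 0.1004 and 0.114). Rnf43 was lost without any single one of the 8 libraries, with edgeR adjusted p from 0.147 to 0.253. Without the pair of libraries with most mesenchymal marker signal, Fzd3, Reck and Rnf43 were lost (edgeR adjusted p = 0.255, 0.195 and 0.377) and Tspan12 was called (0.0235).

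Ligands were scarce in these cells. Of 24 Wnt, norrin and R-spondin genes, 10 had 0 counts in every library and 9 were tested, of which 0 were called by edgeR, with 1 at an unadjusted p under 0.05, namely Ndp. DESeq2 called Ndp (adjusted p = 0.0669). The 2 ligands with the highest mean level per length were Wnt2 and Rspo3. Wnt2 had 200 and 371 counts in wild type cluster cells, 0 and 940 in Sl/Sl cluster cells, 230 and 256 in wild type ECs and 2 and 85 in Sl/Sl ECs (edgeR adjusted p = 0.606). Its 940 counts came from the cluster library with most mesenchymal marker signal, and without that library its estimate turned from -1.37 to 4.40 on the log2 scale. The Sl/Sl cluster library that remained held 0 Wnt2 counts, so the size of 4.40 is arbitrary. Rspo3, which strengthens Wnt signals by sparing receptors from Rnf43, differed by 0.27 (SE 0.72, edgeR adjusted p = 0.864). For secretion, Wls, the carrier of Wnt proteins to the cell surface, was at 0.52 (SE 0.27, edgeR adjusted p = 0.252) and Porcn, which adds their lipid, at 1.79 (SE 1.59, edgeR adjusted p = 0.532).

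Among 14 secreted inhibitors and Kremen genes, 8 were tested, 1 was called higher and 1 lower, with a median of 0.38, which turned to -0.38 with the 2 genes that had a group at or under the floor set to it. Dkk2, an inhibitor that binds Lrp5 and Lrp6, was higher in ECs by 1.72 (SE 0.47, edgeR adjusted p = 0.0470). Sfrp2, which binds Wnt proteins, fell by 2.34 (SE 0.76, edgeR adjusted p = 0.0855), with libraries that overlapped. Its estimate was -0.55 in wild type (edgeR adjusted p = 0.829) and -4.12 in Sl/Sl (edgeR adjusted p = 0.143), and the interaction was not called (edgeR adjusted p = 0.902). The highest Sfrp2 level, 216 CPM, was in Sl/Sl cluster replicate 2, the library with most mesenchymal marker signal, and without the pair the call was lost (edgeR adjusted p = 0.336). Dkk2 was lost without wild type cluster replicate 2, Sl/Sl cluster replicate 1 or wild type EC replicate 2 (edgeR adjusted p = 0.121, 0.113 and 0.105). Sfrp2 was lost without wild type cluster replicate 1, Sl/Sl cluster replicate 2 or either wild type EC library (edgeR adjusted p = 0.117, 0.183, 0.134 and 0.151).

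Of 24 genes of the Dishevelled family and the destruction complex, 22 were tested and 1 was called, Gsk3b, the kinase that marks β-catenin, which was higher in ECs by 0.72 (SE 0.16, edgeR adjusted p = 0.0249). The median of this list was 0.07, and Csnk1a1, the priming kinase, was at 0.22 (SE 0.17, edgeR adjusted p = 0.446). Of 14 nuclear cofactors all were tested and 0 were called by edgeR, with 0 at an unadjusted p under 0.05 and a median of 0.03. Their 2 genes with the highest mean level per length were Ctbp1, a corepressor, at -0.15 (SE 0.32, edgeR adjusted p = 0.821) and Cby1, an antagonist of β-catenin, at 0.38 (SE 0.40, edgeR adjusted p = 0.608).

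Of 6 other target genes, 5 were tested. Jag1, a Notch ligand, rose from a mean of 101 CPM in cluster cells to 942 CPM in ECs, a log2 fold change of 3.37 (SE 0.26, edgeR adjusted p = 0.000146), and it was also called within each genotype. Cd44, an adhesion receptor of blood cells, fell by 1.02 (SE 0.24, edgeR adjusted p = 0.0289). Both are also under the control of other pathways. In wild type alone, the same lists gave 3 receptors higher (Fzd3, Tspan12 and Reck), Dkk2, Gsk3b and Jag1 higher and Cd44 lower. There 4.56% of all genes were called higher and 3.68% lower. In Sl/Sl alone edgeR called Jag1 and no other gene of the 7 lists, and between genotypes it called none of them in either cell type.

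**Figure D5:**
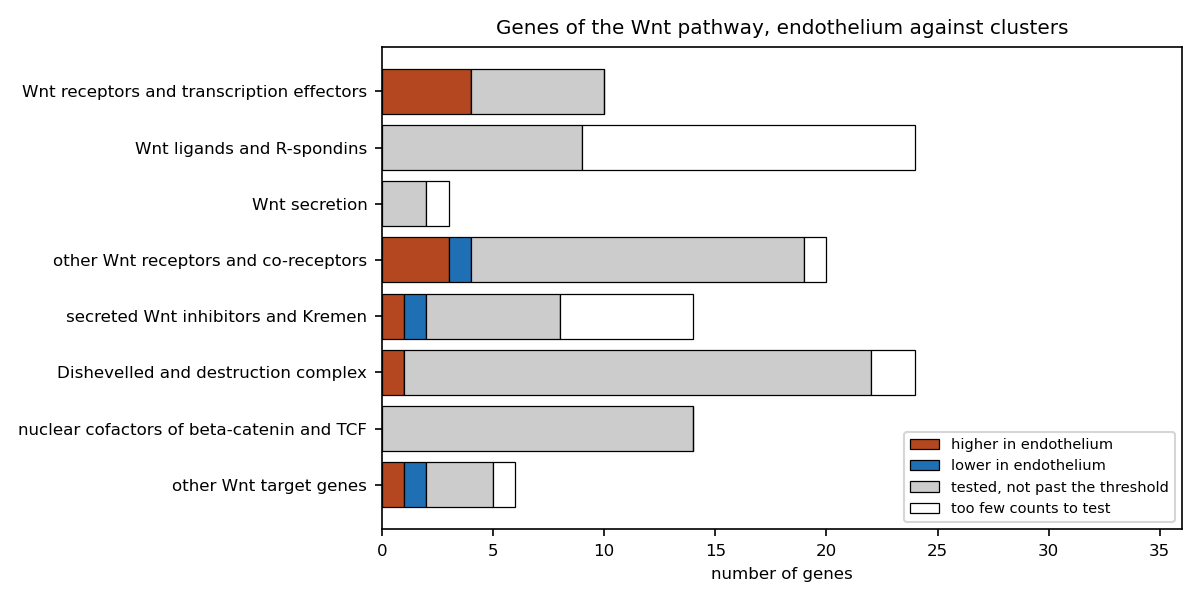
Number of genes in the list of 10 members and in each of the 7 other lists of the Wnt pathway that were called higher in ECs, called lower, tested without a call, or had too few counts to test, in the average over genotypes. The list of members has 4 genes called higher, the list of other receptors 3 and no other list more than 1, and 15 of the 24 ligand genes had too few counts.

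Genes with the most similar pattern were found by Pearson's r of log2 CPM over the 8 libraries, for the member of each role with the widest range of group means. For Fzd4 these were Tmem255b (r = 0.997), Id3 (0.992) and Tead2 (0.991). For Tcf7l1 they were Igf1 (0.991), Mfap2 (0.990) and Fat4 (0.990). For Axin2, in which 4 of 8 libraries were at 0, they were Tstd3 (0.985), Synj2 (0.965) and Ift122 (0.940). With 8 libraries and 13888 genes to choose from, values this high are found for many genes, and Spearman's rho named 3 other genes for each of these members.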

How the data were processed

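RNA-Seq libraries were prepared with SMARTSEQ2 and sequenced as 75 bp paired ends. Per the authors' methods and the submitters' processing notes, reads were aligned to mm9 with STAR (v2.4.2a) and the deposited values are raw read counts per gene from featureCounts (Subread v1.4.5). The gene annotation, strand setting and treatment of reads with several hits are not given in the sources used here, so overlapping genes may share reads. The deposited table also gives positions and exon length, and 27 gene names had been turned into dates.

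Counts were tested with edgeR (v4.0.16, limma v3.58.1, R v4.3.3): TMM normalization, filterByExpr on the 4 groups and a quasi-likelihood fit to 8 libraries, with Benjamini-Hochberg adjustment over 13908 genes and a threshold of 0.1, which is the level the study used. The average over genotypes is the mean of the log2 fold changes of wild type and Sl/Sl. CPM used TMM-scaled totals and RPKM plain totals with exon length. Log2 CPM used a prior count of 2. Ratios and medians with groups at or near 0 used a floor of 3 counts per library, which leaves out the spread between libraries. Standard errors are the log2 fold change over the root of F. The common dispersion was 0.667, with 4 residual and 5.24 prior degrees of freedom. Total counts had a median of 11942635, and replicates had a Spearman correlation of 0.917 to 0.923 across genes. An exact permutation test of 2 against 2 libraries cannot go below p = 0.333.

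The members and lists were chosen with earlier results of these data known. Outside the members, genes are named that passed the threshold in the average or in wild type (at most 5 per list), or the 2 with the highest mean RPKM where fewer than 2 passed. Alternatives were RLE normalization, no filter or 10 counts in every library, DESeq2 (v1.42.0), a threshold of 0.05, only the libraries compared, the replicate number as a block, and each library left out. The steps were tested on simulated data.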

Additional observations from a re-analysis of the deposited data

How the results depend on the processing

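Of 653 fold changes of members and named genes under the alternatives, 575 kept their direction and side of the threshold, 30 newly passed it, 37 no longer passed it and 11 changed sign. The cause of these changes was not tested. The average over genotypes called 2310 genes, whereas DESeq2 gave 3614, a threshold of 0.05 gave 1488, and leaving out the library of each cell type with most mesenchymal marker signal, which was chosen after the data were seen, gave 1036 with 2 of the 4 members. In wild type, 1146 genes and 2 members were called, against 1990 and 4 without the filter, 2613 and 4 with DESeq2, 657 genes at 0.05, 605 without the mesenchymal-high pair, and 1 member with 10 counts in every library, a filter that removes Fzd4. In Sl/Sl, 393 genes and 0 members became 1266 and 3 without the filter, 1631 and 3 with DESeq2, 222 genes at 0.05, 211 with only the 4 libraries compared and 183 without the pair. Between genotypes of cluster cells, 0 genes and 0 members became 253 and 2 without the filter, 175 and 2 with DESeq2, 9 genes with 10 counts in every library and 6 without the pair. Between genotypes of ECs, 0 genes became 65 without the filter, 178 with DESeq2 and 2 with only the 4 libraries. For the interaction, 0 genes and 0 members became 179 and 1 without the filter, 175 and 2 with DESeq2, and 2 genes without the pair.

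With each library left out in turn, the average gave 1563 to 2087 genes and 4 members each time, wild type 592 to 1329 genes and 2 to 4 members, Sl/Sl 182 to 633 genes and 0 to 1 member, the genotype in cluster cells 6 to 76 genes and 0 members, the genotype in ECs 0 to 1 gene and the interaction 0 to 27 genes. The lowest wild type count came without wild type cluster replicate 2, and the highest genotype count without wild type cluster replicate 1. Estimates that changed sign, all uncalled, ranged over the left-out libraries from -2.09 to 6.57 for Lef1, -3.77 to 4.40 for Wnt2, -0.56 to 0.72 for Rspo3, -0.55 to 0.084 for Ctbp1 and -0.24 to 0.54 for Tcf7l1 between genotypes of ECs. Where the library left in a group held no counts, as for Lef1 and Wnt2, the size of the estimate is arbitrary. Without the pair, Wnt2 was at 4.50 and Tcf7l1 between genotypes of ECs at -0.24. On TMM-scaled totals Fzd4 in Sl/Sl ECs was at 8.27 RPKM.

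The replicate numbers were not shown to pair the libraries: the deviations of the groups compared correlated at -0.01 to 0.16 across genes, highest between wild type and Sl/Sl cluster cells, and whether a number marks 1 of the 2 sorting experiments is not given in the sources used here. With the replicate block, the wild type comparison called 4 members and the genotype comparison in cluster cells 8 genes. With the replicate block nested in cell type, the average called 972 genes and lost Fzd6 (edgeR adjusted p = 0.136), Fzd3 (0.1003), Tspan12 (0.266), Reck (0.146), Rnf43 (0.516), Dkk2 (0.274), Sfrp2 (0.114) and Gsk3b (0.198), whereas Fzd4, Tcf7l1, Ctnnb1, Jag1 and Cd44 were called, the genotype comparison in cluster cells called 57 genes and 1 member, Tcf7l1, the interaction called 21 genes, and Ctbp1 turned to 0.15. Fzd4 (in wild type cluster cells), Lrp5, Axin2, Lef1 and Apcdd1 each had a library with at most 1 count. The part of depth in these low counts was not tested.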
